A study of Mus musculus with 12 samples.

Results

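Ccl2, Ccl7, Ccl12 and Ccl8 encode the monocyte chemoattractant branch of the CC chemokines in the mouse. They were taken as the rows of the deposited table that carry these 4 gene symbols, out of 23959 genes, and all 4 passed the filter on low values that left 12315 genes to test. Their level in mouse bone marrow-derived macrophages (BMDMs) was measured by RNA-seq in 12 libraries, 3 in each of 4 groups. The cells were grown from bone marrow for 7 days with 20 ng/ml of the growth factor M-CSF, and all groups carry the genotype WT in the sample labels, with C57BL/6J named as the mouse strain in the methods.

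The control group received neither LPS nor peptide and is labelled 0 h. The LPS group was activated for 2 h with 200 ng/ml LPS, the bacterial ligand of TLR4. The remaining groups were given 1 μM or 10 μM of cpTLR-i for 1 h before the same LPS activation. cpTLR-i is a peptide from the TIR domain of TIRAP, the adaptor that links TLR4 to MyD88, joined to a cell-penetrating sequence. No group with peptide and without LPS and no group with a control peptide was analysed here, and LPS cannot be told apart from time in culture in comparisons with control. Whether the 3 libraries of a group stem from different mice or dishes is not given in the sources used here, so a p-value covers the spread of these libraries alone, and that spread may be technical. In bulk RNA, fewer cells that express a gene and less RNA per cell cannot be told apart.

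Chemokines are small secreted proteins that direct the migration of leukocytes through G protein-coupled receptors. CCL2, CCL7 and CCL12 are ligands of CCR2, the receptor by which monocytes leave the bone marrow and enter inflamed tissue, and mouse CCL8 is a ligand of CCR8. Macrophages transcribe these genes after TLR4 is engaged, through the MyD88 arm, which activates NF-κB and AP-1, and through the TRIF arm, which induces type I interferon.

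The 4 genes lie in 1 cluster on the plus strand of chromosome 11 (mm10, the build of the deposited files, with positions from the GRCm38.p6 annotation), and each has 3 exons. In order along the chromosome, Ccl2 (gene ID 20296) spans 82035577 to 82037452, Ccl7 (20306) 82045712 to 82047525, Ccl12 (20293) 82101845 to 82103399, and Ccl8 (20307) 82115185 to 82116799. The whole group covers 81223 bases. Ccl7 starts 8259 bases after Ccl2 ends and Ccl8 starts 11785 bases after Ccl12 ends, while 54319 bases, which hold the lncRNA gene Gm38913 among others, separate Ccl7 from Ccl12. Their transcripts are related but share few exact stretches. The longest run of identical bases between transcripts of any pair was 11 to 23 bases, with 23 for Ccl2 and Ccl7.

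Promoters of RefSeq genes on GRCm38.p6, 250 bases before the start site and the first 50 bases after it, were matched by symbol for Ccl12 and Ccl8, that is for 2 of the 4 genes. They are shown because no promoter was matched for Ccl2 and Ccl7. A link between their letters and the response to LPS or to the peptide was not tested. Capitals mark TATAAA and GGAAAT (or ATTTCC, its reverse complement), and the second motif was chosen after the sequences were seen.
Ccl12 promoter, chr11:82101595-82101894, plus strand: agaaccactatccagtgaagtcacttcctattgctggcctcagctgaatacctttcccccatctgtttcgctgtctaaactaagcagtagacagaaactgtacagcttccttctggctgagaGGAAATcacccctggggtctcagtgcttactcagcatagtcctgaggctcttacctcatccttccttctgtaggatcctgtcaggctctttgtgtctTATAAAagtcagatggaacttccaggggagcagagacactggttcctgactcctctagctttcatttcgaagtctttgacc
Ccl8 promoter, chr11:82114935-82115234, plus strand: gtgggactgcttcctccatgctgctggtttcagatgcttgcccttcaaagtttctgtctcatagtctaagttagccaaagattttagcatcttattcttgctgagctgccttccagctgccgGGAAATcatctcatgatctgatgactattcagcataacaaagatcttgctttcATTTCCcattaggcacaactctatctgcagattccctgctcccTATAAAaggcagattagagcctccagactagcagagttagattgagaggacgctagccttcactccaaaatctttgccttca
TATAAA began 31 bases before the start site in Ccl12 and 32 bases before it in Ccl8. This motif was found on either strand in 13.6% of 32851 promoters of the same length, and starting 40 to 20 bases before the start site on the gene's own strand in 1.99%. GGAAAT began 128 bases before the start site in both genes, and Ccl8 held ATTTCC a second time from 75 to 70 bases before it. GGAAAT, searched on both strands, was found in 17.7% of all promoters. Aligned at the start site without gaps, the 2 promoters were identical at 101 of 300 bases (33.7%), and the longest identical run was 8 bases, from 128 to 121 bases before the start site. On both strands, neither promoter held the kappaB consensus (in 4.51% of all promoters), TGANTCA of AP-1 (7.81%), TTCNNNGAA of STAT factors (8.30%) or the interferon-stimulated response element (3.44%). A match is a description of the letters in this window, and the absence of one says nothing about a factor.

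Values are FPKM, which relate the fragments of a gene to its length and to all mapped fragments of the library, so levels can be compared between genes. Log2 fold changes are differences of mean log2(FPKM + 0.25), with a standard error and 95% interval from limma over all 12 libraries, and at low FPKM the added 0.25 makes them smaller than the change itself. To be called, a gene needed an adjusted p (Benjamini-Hochberg) under 0.05 and had to differ by over 1.5-fold. Within groups, libraries correlated at r = 0.995 to 0.997 across genes. The absolute depth is unknown, since no read counts were used here.

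The plot of levels by library gives the order of the groups for each gene.

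**Figure D1:**
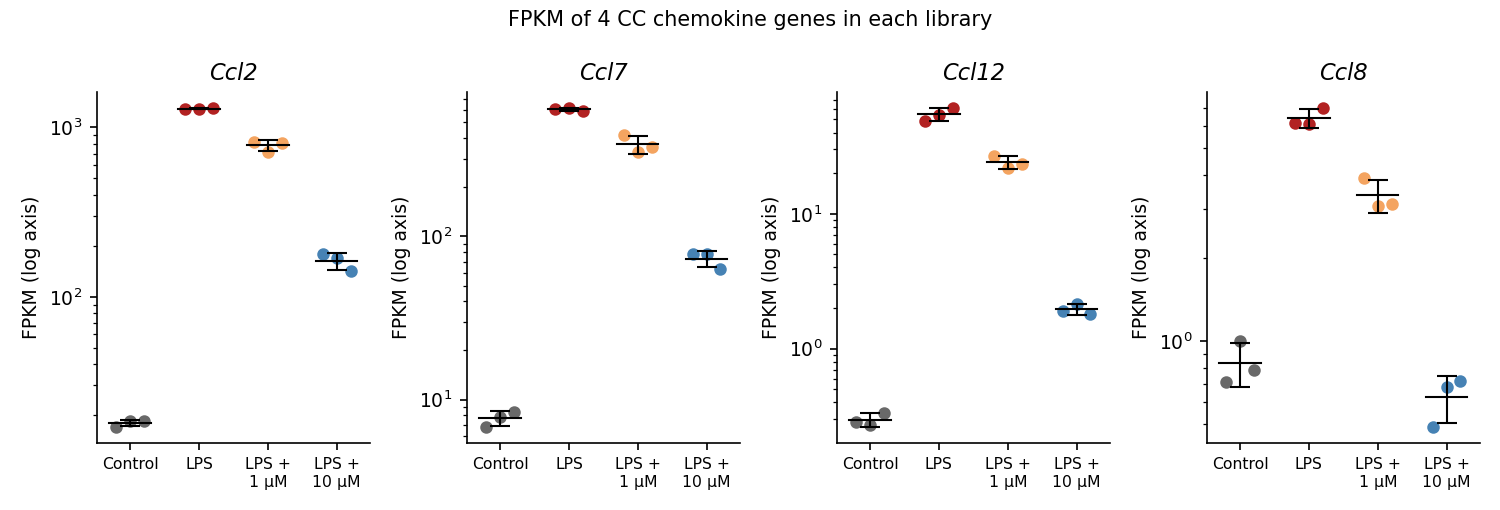
FPKM on a log axis of Ccl2, Ccl7, Ccl12 and Ccl8 in control, LPS, LPS with 1 μM cpTLR-i and LPS with 10 μM cpTLR-i. Points are libraries, and horizontal lines and bars are the mean and SD of 3 libraries. LPS libraries are the highest for all 4 genes, the 1 μM libraries lie between LPS and 10 μM without overlap, and for Ccl8 alone the 10 μM libraries (0.490 to 0.715 FPKM) reach the control range (0.710 to 1.00 FPKM).

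Ccl2, the main CCR2 ligand, was the most abundant of the 4 genes in every library. It was at 1276, 1289 and 1301 FPKM with LPS, against 17.1, 18.5 and 18.5 FPKM in control. The groups did not overlap, and the means, 1289 ± 12.9 and 18.0 ± 0.806 FPKM (SD, n = 3 each), differed by 71.4-fold. LPS thus raised Ccl2 by 6.14 on the log2 scale (SE 0.07, limma's adjusted p = 1.9e-16). With LPS and cpTLR-i it was at 824, 719 and 803 FPKM at 1 μM and at 178, 169 and 142 FPKM at 10 μM. Every library with 1 μM was below every library with LPS alone and above every library with 10 μM. Against LPS alone, the mean fell to 60.7% with 1 μM (log2 fold change -0.72, 95% interval -0.88 to -0.57, limma's adjusted p = 5.8e-05). With 10 μM it fell to 12.7% (-2.99, -3.14 to -2.83, limma's adjusted p = 5.0e-13). Ccl2 remained 9.04-fold above control with 10 μM, at 163 ± 18.6 FPKM (log2 fold change 3.15, limma's adjusted p = 5.3e-13).

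Ccl7, a ligand of CCR2 that also acts on CCR1 and CCR3, followed Ccl2 closely at a lower level. Its libraries had 602, 614 and 588 FPKM with LPS, against 6.80, 7.82 and 8.37 FPKM in control. These groups did not overlap and their means differed by 78.5-fold (log2 fold change 6.25, SE 0.10, limma's adjusted p = 3.2e-15). With peptide and LPS, Ccl7 was at 419, 328 and 353 FPKM with 1 μM and at 78.1, 78.2 and 63.3 FPKM with 10 μM. Again the doses formed separate steps below LPS. The mean was 61.0% of that with LPS alone at 1 μM (log2 fold change -0.72, 95% interval -0.93 to -0.51, limma's adjusted p = 4.6e-04) and 12.2% at 10 μM (-3.04, -3.25 to -2.83, limma's adjusted p = 9.8e-12). With 10 μM it remained 9.55-fold above control.

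Ccl12, another CCR2 ligand of the mouse, had the largest fold rise with LPS in FPKM and the largest fall with peptide of the 4 genes. It was at 49.0, 53.9 and 60.9 FPKM with LPS, against 0.284, 0.273 and 0.337 FPKM in control. The control values lie close to the added 0.25, so the 183-fold difference of the means (54.6 ± 5.99 and 0.298 ± 0.0340 FPKM) corresponds to a log2 fold change of only 6.64 (SE 0.09, limma's adjusted p = 1.0e-15), and to 5.42 when 1 FPKM is added instead, which is below the 6.08 of Ccl2 and the 6.12 of Ccl7 on that scale. With peptide and LPS it was at 27.0, 22.0 and 23.4 FPKM with 1 μM and at 1.90, 2.15 and 1.81 FPKM with 10 μM. No 2 groups overlapped. Ccl12 fell to 44.2% of its level with LPS alone at 1 μM (log2 fold change -1.17, 95% interval -1.37 to -0.97, limma's adjusted p = 1.4e-05) and to 3.59% at 10 μM (-4.63, -4.83 to -4.43, limma's adjusted p = 9.9e-14). With 10 μM it was still 6.57-fold above control (log2 fold change 2.01, or 1.19 with 1 FPKM added).

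Ccl8, the CCR8 ligand, was the least abundant of the 4 with LPS and the only one that 10 μM cpTLR-i brought to the control range. Its libraries had 6.14, 6.10 and 6.98 FPKM with LPS, against 0.710, 1.00 and 0.787 FPKM in control. The groups were apart, with means 7.70-fold different (log2 fold change 2.63, SE 0.13, limma's adjusted p = 3.5e-10). With peptide and LPS it was at 3.88, 3.09 and 3.12 FPKM with 1 μM and at 0.490, 0.682 and 0.715 FPKM with 10 μM. Ccl8 fell to 52.5% of its level with LPS alone at 1 μM (log2 fold change -0.89, 95% interval -1.16 to -0.61, limma's adjusted p = 6.1e-04) and to 9.82% at 10 μM (-2.93, -3.20 to -2.65, limma's adjusted p = 1.8e-10). The last value is -2.19 with 1 FPKM added. Between 10 μM and control the libraries overlapped, with 0.629 ± 0.122 and 0.832 ± 0.150 FPKM. The log2 fold change was -0.30 (95% interval -0.57 to -0.03, limma's adjusted p = 0.0478), under the fold minimum, so Ccl8 was not called there.

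All 4 genes were called higher with LPS than in control, where 11.0% of the tested genes were called higher. In the comparison of 1 μM cpTLR-i with LPS alone all 4 were called lower, and only 0.625% of the tested genes were, that is 77 of 12315. Among all tested genes, called or not, ordered by the size of the fall, Ccl12 ranked 10, Ccl8 25, Ccl2 39 and Ccl7 41. All 4 were also called lower in 10 μM libraries than in those with LPS alone (9.44% of the tested genes) and lower with 10 μM than with 1 μM (9.05%). In the last comparison the log2 fold changes were -2.26 for Ccl2, -2.32 for Ccl7, -3.46 for Ccl12 and -2.04 for Ccl8. Against control, all 4 were higher with 1 μM (10.9% of the tested genes), with log2 fold changes of 5.42, 5.53 and 5.47 for Ccl2, Ccl7 and Ccl12 and of 1.74 for Ccl8. With 10 μM, 3 of the 4 were higher than control (8.57%).

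The median log2 fold change was 6.20 over the 4 genes and -0.39 over all tested genes for LPS against control. It was -0.80 and 0.06 for 1 μM against LPS, and -3.01 and 0.22 for 10 μM against LPS. These shifts of the bulk of genes are reduced by dividing each library by its median ratio. Of all tested genes, 17.0% were then called higher and 18.5% lower with LPS than in control, 0.357% and 0.926% with 1 μM against LPS, and 13.1% and 12.4% with 10 μM against LPS. The changes with LPS then became 6.56, 6.67, 6.95 and 2.98 for Ccl2, Ccl7, Ccl12 and Ccl8, and those with 10 μM against LPS became -3.23, -3.28, -4.87 and -3.15, with the same calls. The plot of log2 fold changes shows Ccl12 apart from Ccl2 and Ccl7 where a dose is compared with LPS and where the doses are compared with each other.

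**Figure D2:**
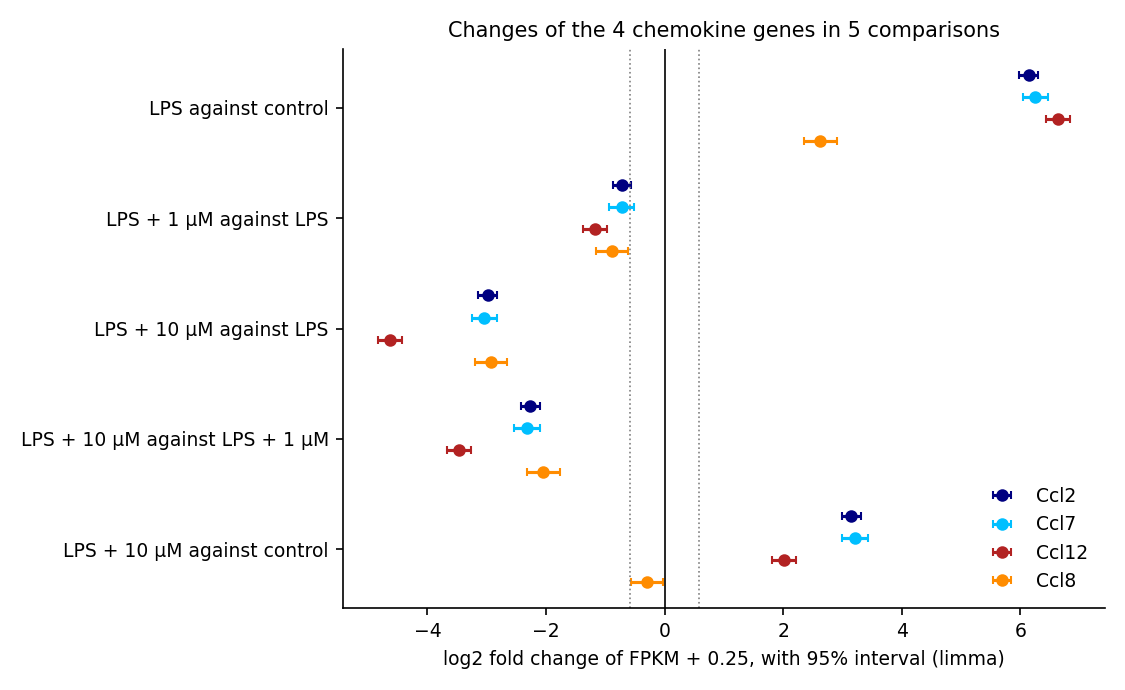
Log2 fold change of FPKM + 0.25 (x axis) of Ccl2, Ccl7, Ccl12 and Ccl8 in 5 comparisons (y axis), with 95% intervals from limma, 3 libraries per group. Dotted lines mark the 1.5-fold minimum. Ccl2 and Ccl7 lie together in every comparison, Ccl12 is the lowest for 10 μM against LPS (-4.63), and only Ccl8 lies between the dotted lines for 10 μM against control (-0.30).

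The share of the LPS response that was left with peptide was taken in FPKM, as the level above the control mean divided by the rise with LPS. With 1 μM it was 60.1 ± 4.40% for Ccl2, 60.5 ± 7.94% for Ccl7, 43.9 ± 4.73% for Ccl12 and 45.4 ± 8.03% for Ccl8 (SD of 3 libraries around fixed control and LPS means). The median gene raised by LPS kept 92.2% with 1 μM (1355 genes, quartiles 74.9% and 106%), and the 4 genes stood at percentiles 8.93, 9.30, 2.36 and 2.66 of that distribution. With 10 μM the shares were 11.4 ± 1.46% for Ccl2, 11.0 ± 1.44% for Ccl7, 3.06 ± 0.323% for Ccl12 and -3.64 ± 2.18% for Ccl8. The median LPS-raised gene then kept 16.3% (quartiles 0.499% and 45.4%), and the 4 genes were at percentiles 43.4, 42.7, 30.3 and 16.8. The 4 genes thus stood near the lower end of the LPS-raised genes with 1 μM and within the middle of them, apart from Ccl8, with 10 μM. These shares depend on the scale, since on log2 values 88.2% of the rise of Ccl2 was left with 1 μM and 51.4% with 10 μM.

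**Figure D3:**
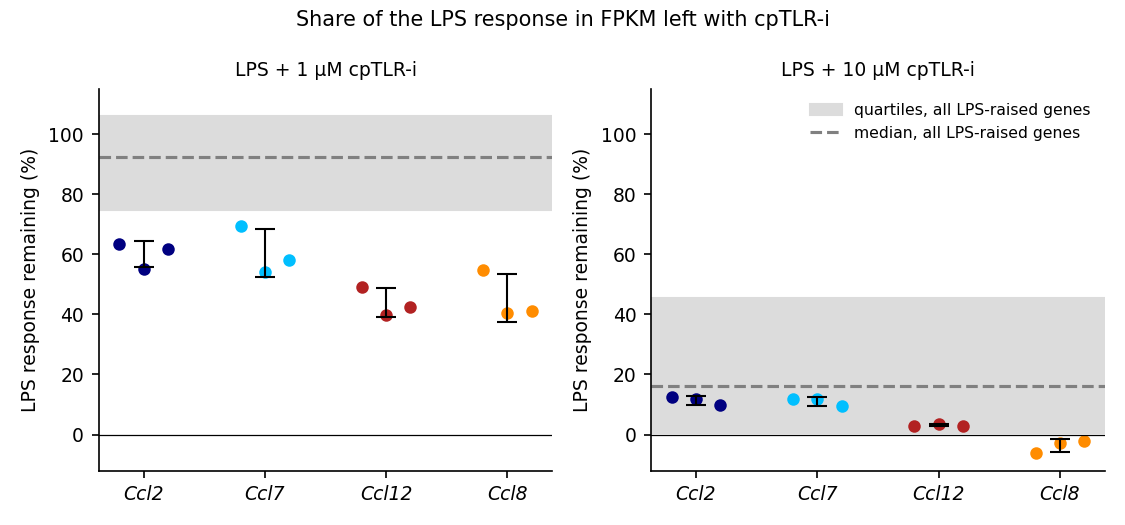
Share of the LPS response in FPKM (%, y axis) left with 1 μM (left) and 10 μM (right) cpTLR-i for each gene. Points are libraries and bars are mean ± SD of 3, the dashed line and the grey band are the median and the quartiles of 1355 LPS-raised genes. With 1 μM all 12 points lie under the grey band, and with 10 μM the points of Ccl8 lie below 0.

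The 1 μM libraries kept 1 order over these genes. Replicate 1 was the highest and replicate 2 the lowest for all 4 genes, while the median deviation of the LPS-raised genes from the group mean was 0.021 in replicate 1 and 0.00012 in replicate 2 on the log2 scale. In the other groups the order of the libraries differed between the genes. Among the 10 μM libraries, replicate 3 was the lowest for Ccl2, Ccl7 and Ccl12 and the highest for Ccl8. With 1 μM replicate 1 left out, the changes against LPS were the largest for Ccl7 (-0.82), Ccl12 (-1.25) and Ccl8 (-0.99), and with replicate 2 left out they were the smallest for Ccl2 (-0.66) and Ccl7 (-0.64), with all calls kept.

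Ratios of 2 genes within a library do not depend on how the library was scaled. The ratio of Ccl2 to Ccl7 was 2.36 ± 0.153 in control, 2.14 ± 0.0597 with LPS alone, 2.14 ± 0.159 with 1 μM and 2.23 ± 0.0637 with 10 μM (SD, n = 3 each). No difference among the 3 LPS groups was detectable for this pair (exact permutation test over 1680 assignments of 9 libraries, p = 0.593, adjusted p = 0.593 over 6 pairs). The ratio of Ccl2 to Ccl12 was 61.0 ± 6.56 in control, 23.8 ± 2.34 with LPS alone, 32.5 ± 1.86 with 1 μM and 83.5 ± 8.77 with 10 μM. The LPS groups did not overlap, and the exact permutation test gave p = 0.00357, the smallest that 1680 assignments allow (adjusted p = 0.00714 over 6 pairs). Ccl7 to Ccl12 gave the same p, with ratios of 25.8 in control and 11.1, 15.2 and 37.4 along the doses from LPS alone upward. The step between any pair of groups was not tested by itself.

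Ccl8 changed its place in the group. The ratio of Ccl12 to Ccl8 was 0.367 ± 0.0828 in control, 8.51 ± 0.465 with LPS, 7.19 ± 0.286 with 1 μM and 3.19 ± 0.676 with 10 μM (exact permutation test over the LPS groups, p = 0.00357, adjusted p = 0.00714). Ccl2 to Ccl8 was 22.0 in control, and 202, 234 and 270 along the doses. This ratio was not called among the LPS groups (exact permutation test, p = 0.304, adjusted p = 0.455), nor was that of Ccl7 to Ccl8 (94.3, 109 and 121, p = 0.407, adjusted p = 0.489). The log2 differences between 10 μM and LPS, 0.38 and 0.32, rested on single 10 μM libraries. Without replicate 3 they were 0.57 and 0.52, and the same exact permutation test called both ratios (adjusted p = 0.0214 and 0.00536). Without replicate 1 they were 0.14 and 0.10 and not called, and with 0.25 FPKM added to each gene they were below 0 (-0.06 and -0.11).

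**Figure D4:**
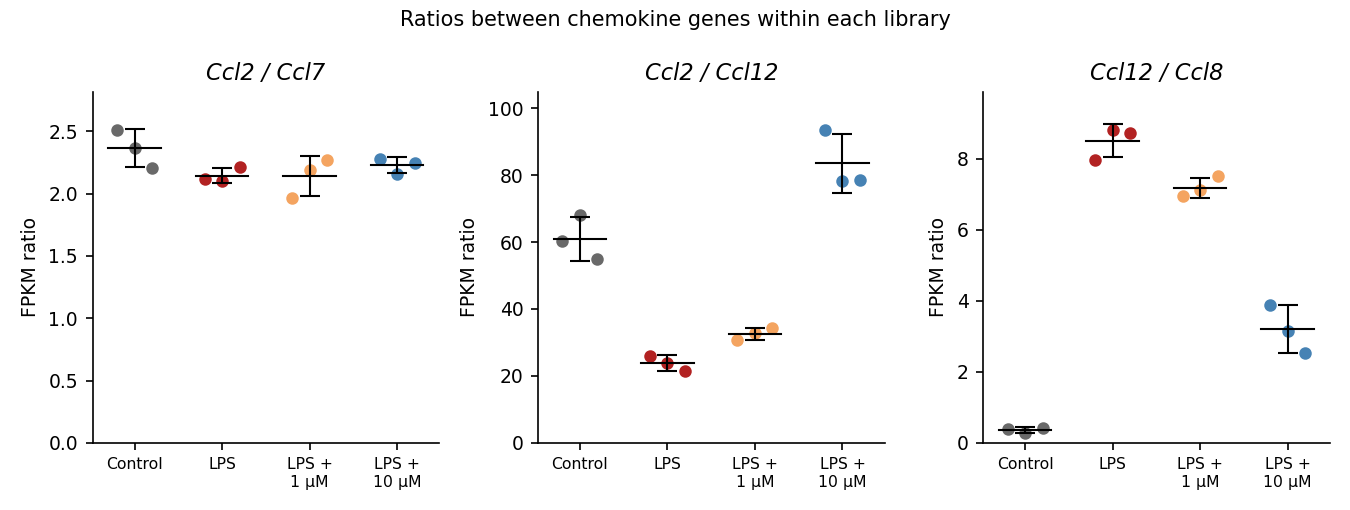
Ratio of FPKM (y axis) of Ccl2 to Ccl7, Ccl2 to Ccl12 and Ccl12 to Ccl8 within each library, by group. Points are libraries, and lines and bars are mean ± SD of 3. Ccl2 to Ccl7 stays between 1.97 and 2.52 in all 12 libraries, while Ccl2 to Ccl12 lies at 78.4 to 93.6 with 10 μM cpTLR-i, against 21.4 to 26.0 with LPS alone.

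Summed over the 4 genes, FPKM was 26.8 ± 1.68 in control, 1951 ± 16.1 with LPS, 1176 ± 102 with 1 μM and 239 ± 26.9 with 10 μM. Ccl2 made up 66.1% to 68.3% of the sum in every group, and Ccl7 28.5% to 31.1%. The share of Ccl12 was 1.11% in control, 2.80% with LPS, 2.05% with 1 μM and 0.823% with 10 μM. That of Ccl8 was 3.09% in control and 0.269% to 0.328% in the groups with LPS. The order of levels was Ccl2, Ccl7, Ccl12, Ccl8 in the 9 libraries with LPS. In the 3 control libraries Ccl8 stood above Ccl12, and neighbours in the order did not overlap in any group.

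The other CC chemokines were described from a list of 16 genes, of which 14 were in the table and 10 were tested. Ccl11, a neighbour in the same cluster, was not analysed here. With LPS, 7 of the 10 rose and 0 fell, beside 11.0% and 35.8% of all tested genes. With 10 μM against LPS the same 7 fell and 0 rose, beside 9.44% and 21.5%. With 1 μM, 0 rose and 0 fell (limma, and also 0 at an unadjusted p under 0.05 with the same fold), and the log2 fold changes of the 7 LPS-raised genes ran from -0.46 (Ccl3) to 0.14 (Ccl17), against -1.17 to -0.72 for Ccl2, Ccl7, Ccl12 and Ccl8. With no fold minimum, 4 of these other chemokines were called lower with 1 μM. Ccl5, which attracts T cells, was at 929 FPKM with 1 μM and 14.2 FPKM with 10 μM, against 1196 FPKM with LPS (log2 fold changes -0.36 and -6.38). Ccl4, which attracts several kinds of leukocytes, was at 1837 FPKM with 1 μM and 167 FPKM with 10 μM, against 2339 FPKM with LPS alone. Ccl22 and Ccl17, ligands of CCR4, had log2 fold changes of -0.39 and 0.14 with 1 μM and of -2.85 and -4.17 with 10 μM. The shares of the LPS response left with 1 μM were 72.4% for Ccl3, 75.5% for Ccl22, 77.6% for Ccl5, 78.2% for Ccl4, 79.5% for Ccl24, 104% for Ccl9 and 109% for Ccl17. These values lie above those of the 4 monocyte chemoattractant genes, and the difference between the groups of genes was not tested. With 10 μM they ran from 0.535% (Ccl17) to 50.6% (Ccl9).

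Receptors and scavengers of CC chemokines, together with the atypical receptor gene Ccrl2, formed a list of 9 genes, of which 7 were in the table and 5 were tested. Ccr8, the gene of the receptor given above for CCL8, was not analysed here. With LPS, 3 rose and 1 fell, beside 11.0% of all tested genes that rose. With 10 μM against LPS 0 rose and 2 fell, beside 21.5% and 9.44%. With 1 μM against LPS 0 rose and 0 fell (limma, and 0 at an unadjusted p under 0.05 with the same fold). The gene that fell with LPS, as did 35.8% of all tested genes, was Ccr2, the receptor of CCL2, CCL7 and CCL12, at 2.00 ± 0.0700 FPKM with LPS, against 6.70 ± 0.218 FPKM in control (log2 fold change -1.63). Its level was 1.51 ± 0.132 FPKM with 1 μM and 2.34 ± 0.245 FPKM with 10 μM, neither past the fold minimum against LPS (-0.36 and 0.20). Ccrl2, an atypical receptor that binds chemerin, was at 61.7 FPKM with 10 μM, against 326 FPKM with LPS (-2.41), and Ccr3, a receptor of eosinophils, at 1.95 against 4.08 FPKM (-0.98). Ccr1, a receptor of CCL7, was at 63.6 FPKM with 10 μM, against 43.6 FPKM with LPS (0.53, under the fold minimum).

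Of the pathway that induces these chemokines, the mRNA of 26 genes of TLR4, MyD88 and NF-κB was described, all tested. These mRNA levels do not measure the activity of the pathway, which was not tested here. With LPS 16 rose and 2 fell, beside 11.0% and 35.8% of all tested genes. With 10 μM against LPS 1 rose and 16 fell, beside 21.5% and 9.44%. With 1 μM against LPS 0 rose and 0 fell (limma, and 0 at an unadjusted p under 0.05 with the same fold), beside 0.495% and 0.625%. The gene higher with 10 μM was Tlr4, which lost its call after median-ratio scaling, after quantile normalization and without 10 μM replicate 3. Nfkbiz, which encodes a nuclear co-activator of NF-κB, was at 30.3 FPKM with 10 μM, against 178 FPKM with LPS (log2 fold change -2.55). Tnfaip3, which encodes the NF-κB inhibitor A20, was at 78.8 against 334 FPKM (-2.08). Nfkb2, which encodes an NF-κB subunit, was at 55.3 against 164 FPKM (-1.57), and Myd88 at 29.3 against 70.5 FPKM (-1.26). With 1 μM, when all 4 monocyte chemoattractant genes were called lower, these log2 fold changes were -0.22, -0.34, -0.05 and -0.21. With no fold minimum, 2 genes of this list, Tnfaip3 and Myd88, were called lower with 1 μM and 1 was called higher.

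Of 16 genes of the TRIF arm and type I interferon signaling, 9 rose and 0 fell with LPS, beside 11.0% and 35.8% of all tested genes. With 10 μM against LPS 1 rose (Traf3) and 8 fell, beside 21.5% and 9.44%. With 1 μM against LPS 0 rose and 1 fell, beside 0.495% and 0.625%. The gene that fell was Ifnb1, the gene of interferon β. Ifnb1 was listed at 0 in the control libraries and had 14.4 FPKM with 1 μM and 0.0957 FPKM with 10 μM, against 22.5 FPKM with LPS alone (log2 fold changes -0.63 and -6.05). Irf1, which encodes an interferon-responsive transcription factor, was at 443 FPKM with 1 μM and 58.6 FPKM with 10 μM, against 511 FPKM with LPS. Irf7 was at 48.1 FPKM with 1 μM and 8.26 FPKM with 10 μM, against 70.3 FPKM with LPS. Stat2, a subunit of the interferon-activated transcription factor, had log2 fold changes of -0.37 with 1 μM and -2.85 with 10 μM.

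The AP-1 and C/EBP genes, whose products act on many chemokine genes, included genes that rose with peptide. Of 10 tested, 3 rose and 2 fell with LPS, beside 11.0% and 35.8% of all tested genes. With 1 μM against LPS 4 rose and 0 fell, beside 0.495% and 0.625%. With 10 μM against LPS 7 rose and 1 fell, beside 21.5% and 9.44%. Fos, an AP-1 subunit, was at 10.3 FPKM with 1 μM and 55.4 FPKM with 10 μM, against 4.56 FPKM with LPS. Jun, its partner, was at 8.33 FPKM with 1 μM and 54.0 FPKM with 10 μM, against 6.81 FPKM with LPS. For Jun only the change with 10 μM against LPS was called. Fos and Jun were the 2 genes that fell with LPS, from 15.1 and 42.7 FPKM in control. With 10 μM against control, Fos was called higher and Jun was not called. Fosb and Fosl1, further subunits, were at 7.02 and 2.36 FPKM with 10 μM, against 0.326 and 0.103 FPKM with LPS. Fosl1 is counted among the genes that rose at both doses. It was at most 0.395 FPKM outside the 10 μM libraries and passed the filter on low values through those libraries alone, so its calls give no support.

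Of 9 genes of cytokine mRNA decay and stability, 3 rose and 2 fell with LPS, 2 rose and 1 fell with 10 μM against LPS, and 0 rose and 0 fell with 1 μM (limma, and 0 at an unadjusted p under 0.05 with the same fold). Of all tested genes, 35.8% fell with LPS and 21.5% rose with 10 μM against LPS, so these 2 counts are near or under the background. With 1 μM, Zfp36l1 was at 3.16 FPKM, against 4.72 FPKM with LPS (log2 fold change -0.55, limma's adjusted p = 3.6e-04), under the fold minimum, and the count of genes lower with 1 μM was 1 with TPM, after median-ratio scaling or quantile normalization, and without 1 μM replicate 1 or 3. Zfp36l2 and Zfp36l1 encode proteins that bind AU-rich elements and speed mRNA decay. They were at 37.1 and 9.05 FPKM with 10 μM, against 6.42 and 4.72 FPKM with LPS. They were also the 2 genes that fell with LPS, from 69.5 and 21.4 FPKM in control. With 10 μM both were still called lower than in control. Zc3h12a, which encodes an endonuclease that cleaves cytokine mRNA, was at 39.2 FPKM with 10 μM, against 64.4 FPKM with LPS (log2 fold change -0.71). Rc3h1, which encodes the RNA-binding protein roquin, had a log2 fold change of -0.44, under the fold minimum.

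The genes whose log2(FPKM + 0.25) was most like that of each chemokine over the 12 libraries were sought in a pool of 9660 genes. The pool held tested genes whose mean reached 2 FPKM in some group, without the chemokine genes themselves and without predicted-gene symbols (Gm or Rik). For Ccl2 and Ccl7 the most alike were Dusp2, Csrnp1 and Ppp1r15a, with Pearson's r of 0.998 to 0.999. Dusp2, a phosphatase gene of MAP kinases, was at 2.13 ± 0.261 FPKM in control, 46.7 ± 1.80 with LPS, 32.7 ± 0.484 with 1 μM and 10.8 ± 0.713 with 10 μM. For Ccl12 they were N4bp1 (r = 0.997), Filip1l (0.996) and Rsbn1 (0.996). For Ccl8 they were Setdb2 (r = 0.995), Pcgf5 (0.993) and Nfil3 (0.992), and Setdb2, a histone methyltransferase gene, was at 1.99 ± 0.145 FPKM in control, 18.0 ± 1.10 with LPS, 9.76 ± 0.701 with 1 μM and 1.82 ± 0.328 with 10 μM. Between the chemokines, r was 0.9997 for Ccl2 and Ccl7, 0.976 for Ccl2 and Ccl12, 0.926 for Ccl12 and Ccl8 and 0.825 for Ccl2 and Ccl8. The 12 libraries share 4 treatments, so these values mostly follow the group means.

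Genes next to the cluster were named after their values were seen. Gm31522, a lncRNA gene 48421 bases before Ccl2, was at 0.542, 0.510 and 0.505 FPKM with LPS, against 0, 0.0148 and 0 FPKM in control. It had 0.328, 0.433 and 0.348 FPKM with 1 μM and 0.0463, 0.0274 and 0.0463 FPKM with 10 μM. It passed the filter on low values through the 3 LPS libraries alone, so its values are given with no test. Ccl1, the next chemokine gene, 59866 bases after Ccl8, stayed at or under 0.163 FPKM in every library and was not tested.

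The cells were checked with markers of the macrophage and of other cell types. All 7 macrophage markers were tested, led by Lyz2, and their summed FPKM ranged over 14266 to 14842 in control libraries, 11930 to 12181 in LPS libraries, 11964 to 12733 in 1 μM libraries and 11926 to 12227 in 10 μM libraries. Lyz2 made up most of each sum. Mertk, a receptor for dying cells, was at 12.6 FPKM with LPS, against 33.1 FPKM in control (log2 fold change -1.38), Fcgr1, an IgG receptor gene, was at 16.5 FPKM with 10 μM, against 25.5 FPKM with LPS (-0.62), and both were called. Csf1r, the gene of the M-CSF receptor, was at 445 FPKM with 10 μM, against 377 FPKM with LPS (0.24, not called). Stromal cells, another source of Ccl2 and Ccl7, were followed with 7 markers. Their sum was 0.0718 to 0.156 FPKM in control libraries and 0.709 to 0.785 in LPS libraries. With peptide and LPS it was 0.692 to 0.773 FPKM at 1 μM and 0.0912 to 0.271 at 10 μM. The sum thus rose with LPS and was lower with 10 μM, as were Ccl2 and Ccl7. At 1 μM, where Ccl2 and Ccl7 lay below all LPS libraries, the sum overlapped that with LPS. Nearly all of it with LPS was Pdgfrb, which averaged 0.0437 FPKM in control, 0.652 with LPS, 0.624 at 1 μM and 0.0518 at 10 μM. Pdgfra, which did not pass the filter, averaged 0.00208 FPKM in control, 0.0381 with LPS, 0.0352 at 1 μM and 0.00125 at 10 μM. Col1a1 and Col3a1 were at or under 0.0406 FPKM in every library, Dcn at or under 0.0781 and Col1a2 at or under 0.124, and Lum was at 0 in all control, LPS and 1 μM libraries. Neutrophil markers summed to 11.3 to 13.7 FPKM in control libraries, 28.4 to 29.2 in LPS libraries, 23.6 to 27.2 in 1 μM libraries and 34.0 to 46.5 in 10 μM libraries (6 of 8 tested, led by S100a9). Most of the 10 μM sum was S100a9 and S100a8, with means of 21.0 and 15.9 FPKM. Ly6g was at 0 in all control and 10 μM libraries and at most 0.0688 FPKM in the others, and Retnlg was at most 0.172 FPKM. Mpo and Elane, at 1.05 and 0.987 FPKM with 10 μM against 0.423 and 0.466 FPKM with LPS, were called higher. Monocyte markers (3 of 5 tested) summed to 8.14 to 8.58, 11.0 to 12.5, 10.4 to 10.9 and 13.2 to 14.8 FPKM in control, LPS, 1 μM and 10 μM libraries. Dendritic cell markers (2 of 5 tested) summed to 0.414 to 0.472, 1.39 to 1.64, 1.32 to 1.68 and 1.13 to 1.64 FPKM, and endothelial markers (1 of 5 tested, Kdr) to at most 1.87 FPKM. Markers of mast cells and lymphocytes summed to at most 0.0552 and 0.314 FPKM. The part of these cells in the levels of the chemokine genes was not tested.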

How the data were processed

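Gene expression was measured by RNA-seq of poly(A) RNA in 12 libraries. The methods and the labels name different library kits (TruSeq Standard and TruSeq Stranded mRNA), so reads of overlapping antisense genes may not be told apart. Reads were mapped by the authors to mm10 (HISAT2), and transcripts were assembled and quantified (StringTie). The authors deposited FPKM values, normalized to transcript length and to the mapped fragments of a library, for 23959 genes. The authors also deposited TPM values, from the same steps, for the same libraries. Sums per library were 403473 to 422014 for FPKM and 999745 to 999965 for TPM. No read counts were used, so depth is unknown. Relative depths, estimated by the commonest product of FPKM and length among low values, were 1.00 to 1.28, and rough, since 16.1% to 23.5% of low products lay within 0.05 of a whole number.

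Genes reaching 0.5 FPKM in 3 or more libraries were tested on log2(FPKM + 0.25) with limma 3.58.1 in R 4.3.3 (lmFit, eBayes with trend, all 12 libraries in 1 fit, two-sided, Benjamini-Hochberg over 12315 genes) in 6 comparisons. A call needed an adjusted p under 0.05 and a change over 1.5-fold (0.585 on the log2 scale). The study's own threshold has the same fold and a p not stated to be adjusted. Ratios of FPKM of 2 genes within a library were compared among the LPS groups with an exact permutation test of the F statistic, adjusted over 6 pairs. Tables were made with Python 3.11.15 and pandas 2.3.3. The fit was tested on simulated data.

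The genes and gene lists were chosen with earlier results of these data known. Named are the 4 chemokine genes, up to 4 genes per list with the largest change between 10 μM and LPS and a group mean of 2 FPKM or more, with Ccr2, Myd88, Ifnb1, Ccl11 and Zc3h12a whatever their values, the 3 genes most like each chemokine gene, and the highest marker of each cell type. Further genes shown for the CC chemokines, neighbours and the macrophage, stromal and neutrophil markers were named after their values were seen. Settings varied were the unit (TPM), the pseudocount (0.1, 1), the filter (none, 1 FPKM), the scaling (median ratio, quantile), the trend in eBayes, the groups in the fit, a replicate block, leaving out single libraries, and the call rule (unadjusted p, no fold minimum). No library was left out of the analysis. A gene that this rule names is not reported here.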

Additional observations from a re-analysis of the deposited data

How the results depend on the processing

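Over 6 comparisons and 24 alternatives, the calls of Ccl2, Ccl7, Ccl12 and Ccl8 and their directions stayed the same in 575 of 576 cases. The exception was Ccl8 with 10 μM against control, which passed with no fold minimum (-0.30). Across the alternatives the log2 fold change with 1 μM against LPS ranged from -0.79 to -0.66 for Ccl2, -0.82 to -0.64 for Ccl7, -1.25 to -1.09 for Ccl12 and -0.99 to -0.77 for Ccl8, and with 10 μM against LPS from -3.23 to -2.89, -3.28 to -2.94, -4.87 to -4.23 and -3.19 to -2.19. Same-numbered libraries did not deviate together (r = -0.17 to 0.15, 1 of 18 pairs over 0.1, and 4 of 12 libraries correlated best with their own number). No pairing by number was thus detected, which does not show that the samples are unpaired. With a replicate block the value of Ccl2 for 1 μM against LPS was -0.72 (limma's adjusted p = 4.4e-04), Ccl8 for 10 μM against control had an adjusted p of 0.0635, and the block changed no call of the 4 genes.

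On the log2 scale the share of the LPS response left was 88.2% (Ccl2), 88.5% (Ccl7), 82.4% (Ccl12) and 66.3% (Ccl8) with 1 μM and 51.4%, 51.4%, 30.3% and -11.4% with 10 μM, since this scale weighs low levels more. With median-ratio scaling it was 9.78% (Ccl2), 9.44% (Ccl7) and 2.64% (Ccl12) with 10 μM. With 1 library left out, the log2 difference of the Ccl2 to Ccl8 ratio between 10 μM and LPS ranged from 0.14 to 0.57 and that of Ccl7 to Ccl8 from 0.10 to 0.52, with calls only without 10 μM replicate 3 (0.57 and 0.52), and both were below 0 with 0.25 FPKM added (-0.06 and -0.11). The cause was not tested.

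Of 864 list counts, 39 moved by more than 1.5 times, 21 of them with no fold minimum. With it, other CC chemokines lower with 1 μM numbered 4 in place of 0, genes of the TRIF list lower with 1 μM 7 in place of 1, lower with 10 μM 14 in place of 8 and higher with LPS 14 in place of 9, genes of the TLR4 list higher with 10 μM 7 in place of 1 and lower with LPS 5 in place of 2, and genes of mRNA decay higher with 1 μM 4 in place of 0, and its other moves were by 1 or 2 genes. After median-ratio scaling, 5 in place of 3 AP-1 and C/EBP genes were higher with LPS, and every other move outside the change of fold minimum was by 1 gene. Having 3 libraries per group and an unknown depth limits all values. Ccl8 in control and 10 μM libraries and Ccl12 in control were at or near 1 FPKM or below, where the added constant weighs on the fold changes.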
